A study of Homo sapiens with 15 samples.

Results

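The 12 libraries of U87MG cells labelled ID1, ID2, ID3 or ID4 were compared as one set with the 3 libraries labelled GFP, which together are all 15 libraries of the series. The members were taken by their labels, and every group entered with its own mean, so that the contrast was the average of the 4 ID means minus the GFP mean. U87MG is an established human glioblastoma line. In every group, GFP included, the cells had been transduced with a lentivirus and collected 24 hours later, and by the labels the groups differed in the gene that the virus carried. Each group had 3 libraries, made from the 3′ ends of polyadenylated transcripts. The GFP group was the only control, a single cell line was used, and the labels do not say whether libraries of a group came from separate cultures, so p-values measure the spread between these libraries, which may be technical. Total counts per library ranged from 11089044 to 15148979. A level in CPM is a count scaled to 1e6 counts over the tested genes, with each library total adjusted by a scaling factor (TMM, 0.978 to 1.03). In bulk RNA, fewer cells that express a gene and less RNA of it per cell cannot be told apart. With a single control group, a change shared by all ID groups cannot be told apart from a difference of the GFP cells.

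ID proteins are helix-loop-helix factors that lack the basic region for DNA contact. They bind E proteins such as TCF3, TCF4 and TCF12 and keep them, with their tissue-specific partners, from binding the E-box. In glioma they are known for a part in self-renewal, angiogenesis and mesenchymal features. ATF4, which appears below, is the transcription factor of the amino acid and endoplasmic reticulum stress response, and it binds composite elements near the promoters of amino acid transporters, amino acid synthesis enzymes and aminoacyl-tRNA synthetases. SRF with its coactivators drives genes of the contractile actin cytoskeleton through the CArG box.

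Since the genes with lower counts in the ID groups included many ATF4 targets, promoter sequences of the RefSeq table (GRCh38.p14, 250 bases before to 50 after a gene start) were searched on both strands for TGATGNAA, the core of the composite element. The ASNS promoter is shown whole, 5′ to 3′ on the strand of the gene, with the match in capitals, because ASNS had the largest decrease among the amino acid synthesis enzymes.
ASNS (chr7:97872359-97872658, minus strand): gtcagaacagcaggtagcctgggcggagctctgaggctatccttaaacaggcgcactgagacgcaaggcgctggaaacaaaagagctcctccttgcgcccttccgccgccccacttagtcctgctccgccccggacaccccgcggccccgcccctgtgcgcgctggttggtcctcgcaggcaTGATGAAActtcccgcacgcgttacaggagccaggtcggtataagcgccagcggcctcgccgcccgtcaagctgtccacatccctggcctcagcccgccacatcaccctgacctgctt
The match began 68 bases before the gene start. The windows below hold the match and 10 or 11 bases on each side for other members with lower counts in the ID groups, each written on the strand on which the element reads as spelled.
CHAC1 (chr15:40953251-40953279, minus strand): ctggcaggagTGATGCAAcggcaggggag
CEBPG (chr19:33374061-33374089, plus strand): gcgcggcgtcTGATGCAAcctgccggcaa
SLC1A5 (chr19:46784893-46784921, minus strand): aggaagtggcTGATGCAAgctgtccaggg
AARS1 (chr16:70289676-70289704, plus strand): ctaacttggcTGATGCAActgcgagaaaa
GARS1 (chr7:30594834-30594862, minus strand): gctcggagcaTGATGAAAtcgccgcgtaa
Among promoters of tested genes, 296 of 14879 (1.99%) held a match, and among all 35116 promoters in that RefSeq set, 3.62% did. The share was 7 of 21 promoters (33.3%) for the cytosolic aminoacyl-tRNA synthetases, 6 of 26 (23.1%) for the amino acid synthesis enzymes, 6 of 37 (16.2%) for the amino acid transporters and 4 of 31 (12.9%) for the ATF4 regulators. A gene can have several promoters in the table. A match is a string of letters in a window, and the promoters of TRIB3, PSAT1, SLC7A5 and SESN2 held none. Matches also lay in promoters of the transporters SLC7A1 (0.16) and SLC1A3 (0.46), which were higher in the ID groups, and of ATF3, MTHFD1L and BCAT1, which did not pass, all chosen after their values were seen. The share was 6.14% for promoters of genes over 2-fold lower and 4.44% for those of genes over 2-fold higher.

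The transduced genes themselves were examined first. In the libraries labelled ID4, ID4 was at 224 ± 12.1 CPM (SD, n = 3), against 0 to 2 counts per GFP library. In the libraries labelled ID3, ID3 was at 310 ± 12.04 CPM against 221 ± 6.0 with GFP, but it was also at 291 ± 27 CPM in the libraries labelled ID2. ID1 in the libraries labelled ID1 was at 248 ± 2.43 CPM against 345 ± 8.21, and ID2 in the libraries labelled ID2 was at 45.6 ± 1.57 against 86 ± 1.93. Higher counts of the labelled gene thus set apart the libraries labelled ID4, did not set the ID3 label apart from ID2, and were not seen for ID1 and ID2. The libraries count 3′ ends of transcripts, and the sources used here do not say which 3′ end the viral transcripts carried, so a viral copy without the 3′ end of the gene itself would not be counted and lower counts do not settle whether ID1 and ID2 were introduced. The counts below were also computed from the ID3 and ID4 groups alone, an alternative chosen after the data were seen. Over the 12 libraries, ID2 was lower than GFP in every group (-1.33 with ID1, -0.92 with ID2, -0.90 with ID3 and -1.25 with ID4 on the log2 scale), with an average of -1.10 (SE 0.05, adjusted p = 9.88e-14, quasi-likelihood test of edgeR, p-values adjusted by Benjamini-Hochberg, as everywhere below). ID1 averaged -0.24 (adjusted p = 4.84e-04). ID3 differed among the ID groups by up to 0.77 (adjusted p = 1.97e-08), and its average of 0.13 did not pass (adjusted p = 0.0741).

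Of 12781 genes with a mean of 10 or more counts, 4126 (32.3%) had an adjusted p under 0.05, with 2165 (16.9%) higher and 1961 (15.3%) lower in the ID groups. With a change over 2-fold there were 357 genes (2.79%), of which 262 genes (2.05%) were higher and 95 (0.743%) lower, so most called genes moved little, with a median absolute log2 fold change of 0.34. For 1917 genes (15%) the 12 ID libraries did not overlap the 3 GFP libraries, lying above them for 1080 (8.45%) and below for 837 (6.55%). The 4 ID groups also differed from each other in 3760 genes (29.4%) by a test whose contrasts left GFP out, 1915 of them among the 4126, and in 368 (2.88%) the groups lay over 2-fold apart. From a fit of the 12 ID libraries alone, 3637 genes differed among them. From the ID3 and ID4 groups alone, 3894 genes passed, 2056 higher and 1838 lower. Genes were then described by 40 lists of pathways and complexes. These hold no test of their own, and their counts are read against the shares over all tested genes.

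**Figure D1:**
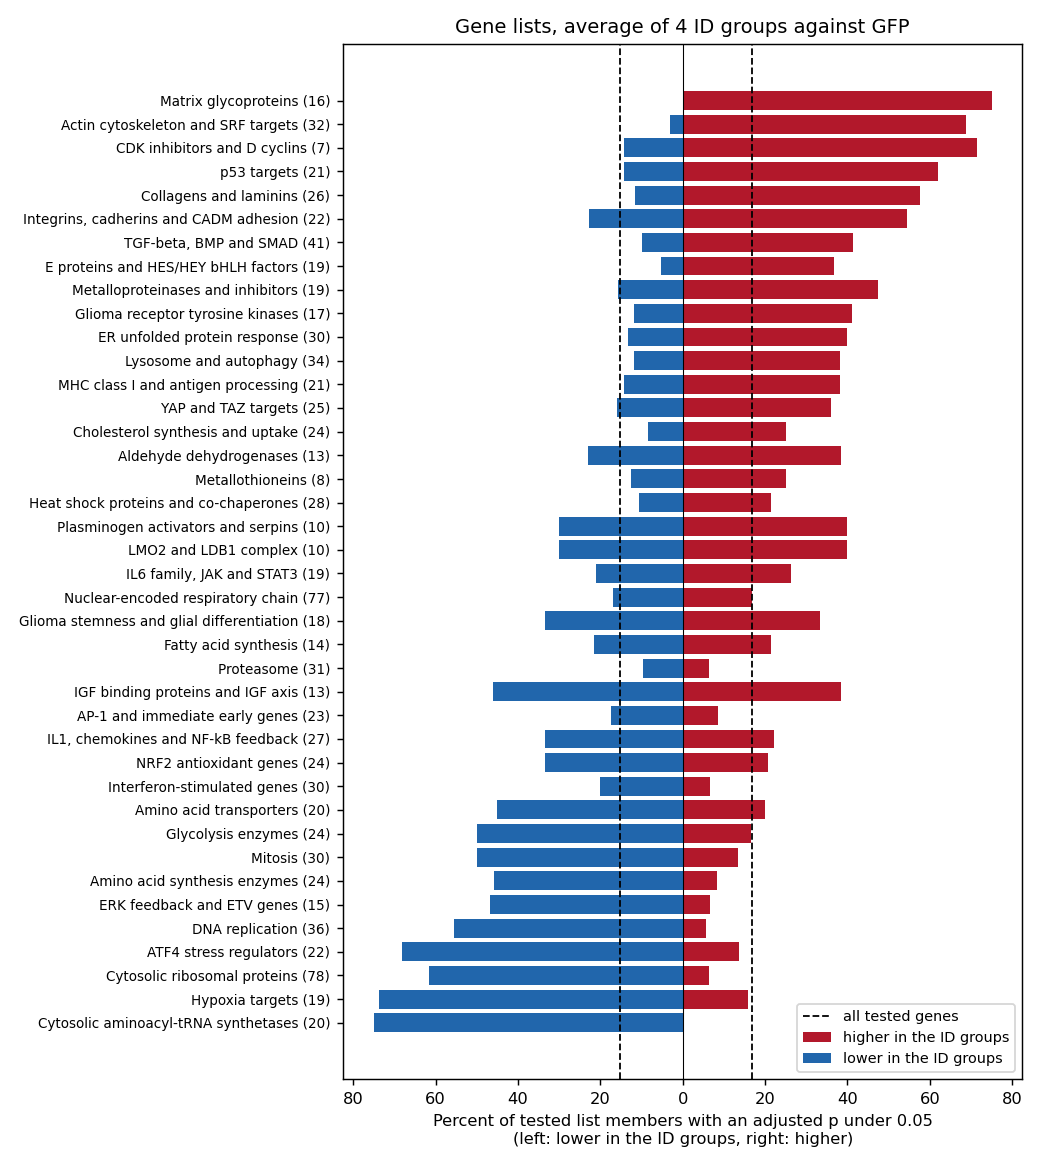
For each gene list (number of tested members in parentheses), the bars give the percent of members with an adjusted p under 0.05, higher in the ID groups to the right and lower to the left. The dashed lines mark the same shares over all 12781 tested genes, 16.9% and 15.3%. Matrix glycoproteins (75%), the 7 cell cycle inhibitors and cyclins (71.4%) and actin genes (68.8%) lie farthest on the right, and aminoacyl-tRNA synthetases and hypoxia targets farthest on the left.

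Regulators and feedback genes of the ATF4 stress response were mostly lower in the ID groups. Of 22 tested members of 23, 15 were lower (68.2%) and 3 higher (13.6%), with a median log2 fold change of -0.40 where the median of all tested genes was near 0 (-0.003). ATF4 itself stood at 288, 321 and 312 CPM in the GFP libraries and 169 to 219 CPM (median 201) in the ID libraries. Its ID libraries all lay below the GFP libraries (log2 fold change -0.64, SE 0.04, adjusted p = 5.51e-11). CHAC1, which degrades glutathione and is a sensitive reporter of this response, stood at 4.33, 4.43 and 4.15 CPM in the GFP libraries and 0.911 to 1.93 CPM (median 1.23) in the ID libraries. CHAC1 was lower in every group, at -1.67 with ID1, -1.82 with ID2, -1.69 with ID3 and -1.89 with ID4, with an average of -1.76 (SE 0.18, adjusted p = 8.31e-08), and the ID groups were not found to differ (adjusted p = 0.898). TRIB3, a pseudokinase that restrains ATF4, stood at 14.4, 10.7 and 13.6 CPM in the GFP libraries and 3.84 to 8.25 CPM (median 5.74) in the ID libraries (log2 fold change -1.16, SE 0.11, adjusted p = 5.96e-08). DDIT4, an inhibitor of mTORC1, stood at 365, 395 and 429.7 CPM in the GFP libraries and 155 to 234 CPM (median 172) in the ID libraries (log2 fold change -1.14, SE 0.05, adjusted p = 5.62e-14). For both genes the groups did not overlap. STC2 (-0.999) and SESN2 (-0.97) were lower as well, and so were NUPR1 (-0.89), CEBPG (-0.63) and the proapoptotic factor DDIT3 (-0.26), chosen after their values were seen. The 3 higher members were GDF15, a stress cytokine (0.53, adjusted p = 1.20e-04), the kinase EIF2AK4 that senses uncharged tRNA (0.33) and CEBPB (0.26). EIF2AK4 lies on chromosome 15, whose genes were higher as a whole, and it was at 0.01 after subtraction of that chromosome's median and no longer passed (adjusted p = 0.896). The list median per library was -0.02 to -0.01 with GFP and -0.52 to -0.26 in the ID libraries, with no overlap. By group the median change was -0.27 with ID1, -0.48 with ID2, -0.44 with ID3 and -0.40 with ID4.

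Enzymes of amino acid synthesis held some of the largest decreases of all genes. Of 24 tested members, 11 were lower and 2 higher, with a median of -0.13. ASNS, asparagine synthetase, lies on chromosome 7 from 97480989 to 97501854 of GRCh37 and stood at 151, 162 and 168 CPM in the GFP libraries and 31.95 to 42.1 CPM (median 36.8) in the ID libraries. Its log2 fold change was -2.12 (SE 0.04, adjusted p = 2.29e-19), with -1.97 with ID1, -2.26 with ID2, -2.22 with ID3 and -2.03 with ID4. The span of 0.29 between the ID groups was small beside the distance of each group from GFP. The serine pathway was lower at each of its steps. PHGDH, which opens it, stood at 73.8, 73.1 and 66.5 CPM in the GFP libraries and 19.7 to 35 CPM (median 30.2) in the ID libraries (log2 fold change -1.29, SE 0.06, adjusted p = 4.31e-13). PSAT1, the second enzyme, stood at 89.8, 85 and 78.6 CPM in the GFP libraries and 18.5 to 29.3 CPM (median 26.04) in the ID libraries (log2 fold change -1.76, SE 0.06, adjusted p = 4.24e-16). No ID library of either gene reached the GFP range. PSPH, the last step, was at -0.53 (adjusted p = 7.48e-05). SHMT2 (-0.40), MTHFD2 (-0.64) and ALDH1L2 (-0.88) of mitochondrial folate metabolism and CTH, cystathionine gamma-lyase (-0.91), also fell, all named with PSPH after their values were seen. GLUL, glutamine synthetase, was higher (0.56, adjusted p = 0.00134), with some overlap. PYCR1, ALDH18A1 and OAT, which make proline and ornithine, did not pass, with the largest log2 fold change 0.08 for PYCR1. The list median was -0.06 after subtraction of each chromosome's own median.

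Amino acid transporters moved in both directions. Of 20 tested members of 26, 9 were lower and 4 higher, and the median was near 0 (-0.02). SLC7A5, the light chain of the large neutral amino acid exchanger LAT1, lies on chromosome 16 from 87863629 to 87903113 of GRCh37 and stood at 30.3, 32.8 and 32.2 CPM in the GFP libraries and 2.17 to 6.84 CPM (median 5.02) in the ID libraries. It had a log2 fold change of -2.76 (SE 0.09, adjusted p = 4.24e-16), from -2.35 with ID3 to -3.56 with ID2, a difference between ID groups that also passed (adjusted p = 5.60e-05). SLC3A2, its heavy chain, was less affected, at 73.9, 67.6 and 68.1 CPM in the GFP libraries and 34.3 to 56.3 CPM (median 48.04) in the ID libraries (log2 fold change -0.59, SE 0.06, adjusted p = 2.76e-08). SLC7A11, the cystine and glutamate exchanger xCT, stood at 51.7, 54.8 and 50.2 CPM in the GFP libraries and 11.2 to 19.7 CPM (median 16.2) in the ID libraries (log2 fold change -1.70, SE 0.07, adjusted p = 1.93e-14). For these 3 genes every ID library lay below every GFP library. The sodium-coupled carriers SLC1A5 (-0.68), SLC1A4 (-0.96), SLC6A9 for glycine (-1.06) and SLC38A1 (-0.54) also fell. Against these, the facilitated carrier SLC43A2, LAT4, stood at 11.1, 6.18 and 10.2 CPM in the GFP libraries and 22.5 to 35.9 CPM (median 26.6) in the ID libraries (log2 fold change 1.55, SE 0.12, adjusted p = 1.23e-09), and SLC7A8, LAT2, rose by 1.24. Both lay above GFP in every ID library. SLC3A2, SLC1A5, SLC1A4, SLC6A9, SLC38A1 and SLC7A8 were named after their values were seen.

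Cytosolic aminoacyl-tRNA synthetases, which charge tRNAs with amino acids, were lower as a group. Of 20 tested members, 15 were lower and 0 higher, beside shares of 15.3% and 16.9% over all tested genes, and the median was -0.35. AARS (AARS1) stood at 77, 80.7 and 69.3 CPM in the GFP libraries and 38.6 to 48.6 CPM (median 44.1) in the ID libraries (log2 fold change -0.80, SE 0.05, adjusted p = 1.52e-10). GARS (GARS1) stood at 222, 234 and 211 CPM in the GFP libraries and 125 to 141 CPM (median 134) in the ID libraries (log2 fold change -0.74, SE 0.04, adjusted p = 1.06e-11). WARS (WARS1) stood at 62.6, 64.2 and 63.8 CPM in the GFP libraries and 36.2 to 43.04 CPM (median 38.3) in the ID libraries (log2 fold change -0.71, SE 0.05, adjusted p = 1.00e-09). All 3 were lower in each ID library, with spans of 0.23, 0.07 and 0.12 between the ID groups that did not pass (adjusted p = 0.117, 0.672 and 0.565). VARS, HARS, KARS, FARSB and RARS did not pass and had log2 fold changes of -0.07 to 0.08. All 7 synthetase genes whose promoter held TGATGNAA were among the lower ones, beside 75% lower over the whole list. Promoters were present in the RefSeq set for 16 of the 20. Cytosolic ribosomal proteins shifted less but in number. Of 78, 48 were lower and 5 higher, with a median of -0.13 and a range of -0.41 for RPL13 to 0.34 for RPS26. After subtraction of chromosome medians, 41 were lower and 0 higher, and RPS26 on chromosome 12 was at 0.16. Reads of ribosomal protein genes can be shared with their pseudogenes, so single members are uncertain.

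**Figure D2:**
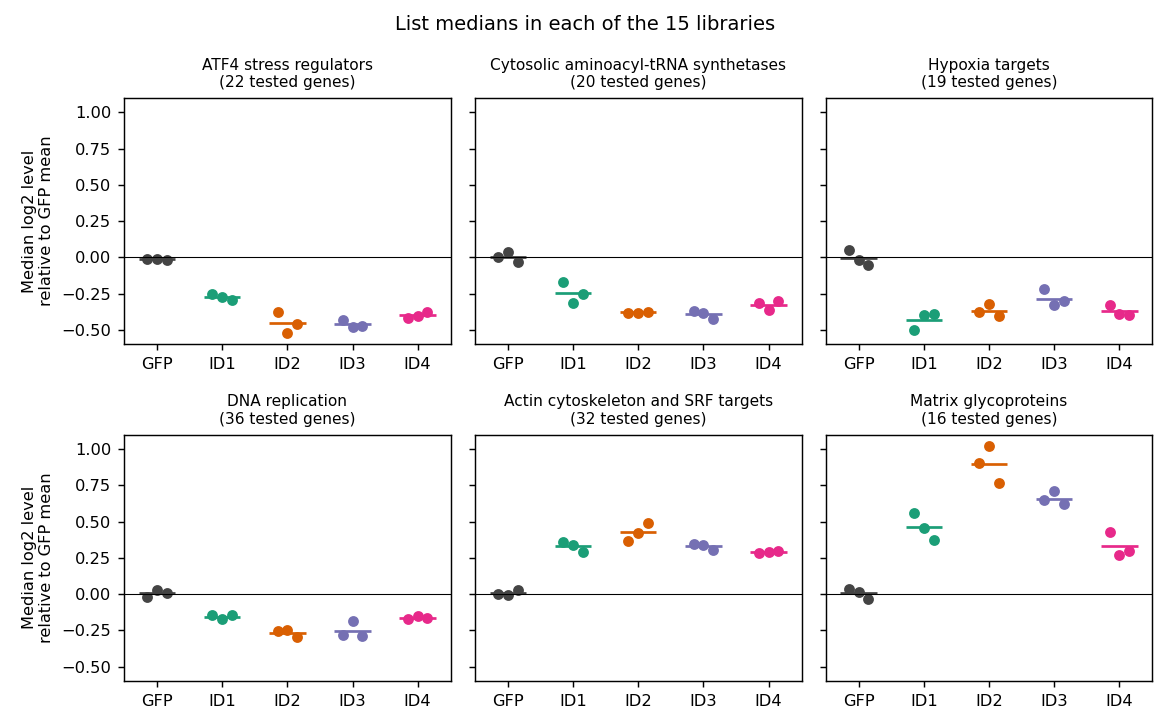
Each point is 1 library, and its height is the median over the tested members of a list of the log2 level relative to the mean of the GFP libraries, with a bar at the mean of each group of 3. For ATF4 regulators, aminoacyl-tRNA synthetases, hypoxia targets and DNA replication all ID libraries lie below GFP, and for the actin and matrix lists all lie above it, highest for matrix genes with ID2.

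**Figure D3:**
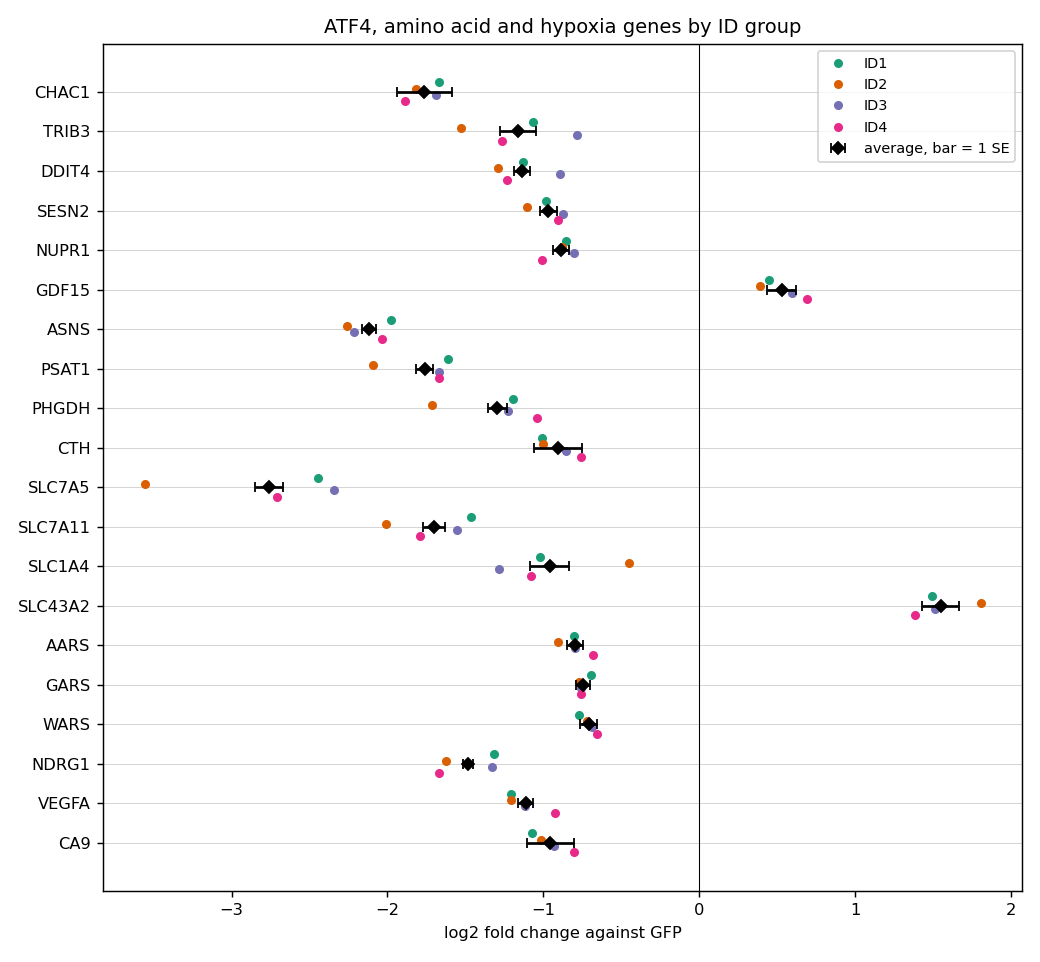
The log2 fold change against GFP is plotted for genes of the ATF4 response, amino acid metabolism, tRNA charging and hypoxia, with coloured points for each ID group and a diamond with a bar of 1 SE for their average. The points of ASNS, CHAC1 and GARS lie close together, while those of SLC7A5 spread from -3.56 with ID2 to -2.35 with ID3. GDF15 and SLC43A2 lie to the right of 0.

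Hypoxia targets were lower with few exceptions. Of 19 tested members, 14 were lower and 3 higher, with a median of -0.41, or -0.34 after subtraction of each chromosome's median. NDRG1, a stress-responsive gene with hypoxia elements in its promoter, stood at 2005, 2069.9 and 2148 CPM in the GFP libraries and 630.4 to 854 CPM (median 735) in the ID libraries (log2 fold change -1.48, SE 0.03, adjusted p = 2.91e-19). VEGFA, the angiogenic growth factor, stood at 394, 394 and 353 CPM in the GFP libraries and 146 to 208 CPM (median 173) in the ID libraries (log2 fold change -1.11, SE 0.05, adjusted p = 1.19e-13). CA9, a carbonic anhydrase, stood at 236, 192 and 256 CPM in the GFP libraries and 59.4 to 148 CPM (median 117) in the ID libraries (log2 fold change -0.96, SE 0.15, adjusted p = 3.31e-05). The groups did not overlap for any of the 3. BNIP3 (-0.71), PDK1 (-0.62) and ANGPTL4 (-0.64) fell as well, and of the factors EPAS1 was lower (-0.83) while HIF1A was higher (0.27), all named after their values were seen. P4HA2, a collagen prolyl hydroxylase, was the largest exception, at 285, 258 and 243 CPM in the GFP libraries and 334 to 561 CPM (median 420) in the ID libraries (log2 fold change 0.69, SE 0.05, adjusted p = 1.36e-09), and the ID groups differed (adjusted p = 4.23e-08), with ID1 and ID4 nearer to GFP (0.42 and 0.38) than ID2 and ID3 (0.96 and 1.003). Glycolysis genes were lower in 12 of 24 and higher in 4. Their median was -0.22 with ID1, -0.03 with ID2, -0.14 with ID3 and -0.19 with ID4, and the library medians overlapped GFP. Among the ID groups 15 of the 24 differed, beside 29.4% of all tested genes. ALDOC, a brain aldolase (-0.74, adjusted p = 1.95e-06), and SLC2A1, the glucose transporter GLUT1 (-0.60, adjusted p = 2.72e-07), fell. PFKM rose by 0.45. PFKM lies on chromosome 12, whose genes were higher in the ID groups as a whole (given below), and it was at 0.27 after subtraction of that chromosome's median (adjusted p = 1.59e-04). Genes of the nuclear-encoded respiratory chain showed no common direction, with 13 higher and 13 lower of 77 and a median of -0.01.

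Genes of the actin cytoskeleton, many of them SRF targets, were higher in the ID groups. Of 32 tested members of 35, 22 were higher (68.8%) and 1 lower, with a median of 0.37. The list median per library was at most 0.03 with GFP and 0.28 to 0.49 in the ID libraries. CNN1, calponin 1 of smooth muscle, lies on chromosome 19 from 11649582 to 11661138 of GRCh37 and stood at 7.897, 5.68 and 3.98 CPM in the GFP libraries and 41.1 to 68.4 CPM (median 47.4) in the ID libraries. Its log2 fold change was 3.09 (SE 0.12, adjusted p = 6.52e-15). MYL9, the regulatory light chain of smooth muscle myosin, had 2 to 7 counts per library with GFP against 29 to 85 over the 12 ID libraries. The ratio of its level over all ID libraries to GFP was 11.6 (95% counting interval 6.72 to 21.9), and every ID library lay above GFP. TAGLN, transgelin, was at the low end of detection, at 0.699, 0.0835 and 0.762 CPM in the GFP libraries and 0.759 to 2.75 CPM (median 1.55) in the ID libraries, where the lowest ID library lay below the highest GFP library. It still passed (log2 fold change 1.44, SE 0.35, adjusted p = 0.00305) and was least raised with ID4 (0.75). ACTA2, smooth muscle actin, stood at 4.68, 5.09 and 5.08 CPM in the GFP libraries and 7.26 to 16.5 CPM (median 12.5) in the ID libraries (log2 fold change 1.28, SE 0.12, adjusted p = 2.96e-08), and TPM1, tropomyosin 1, at 120, 122 and 121 CPM in the GFP libraries and 224 to 295 CPM (median 277) in the ID libraries (log2 fold change 1.14, SE 0.05, adjusted p = 1.26e-14). Neither overlapped GFP. TPM1 lies on chromosome 15 and was at 0.82 after subtraction of that chromosome's median. CALD1 (0.97), LMOD1 (0.88), TPM2 (0.82) and PDLIM7 (0.67) also rose, named with ACTA2 and TPM1 after their values were seen. The factors did not pass, at 0.13 for SRF, -0.09 for MKL1 and 0.10 for MKL2, and TPM3 was the 1 lower member (-0.20).

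CArG boxes were searched on both strands with the strict spelling CCWWWWWWGG, where W is A or T. They were in 10 of 64 promoters of the actin list (15.6%) and in 1.19% of promoters of all tested genes. Of the members with a box, SRF (0.13), TPM4 (0.06) and FHL1 (0.48) did not pass. The windows below show a box in capitals for each of the 5 raised members that had one. Each is on the strand of the gene (GRCh38.p14), so that the variable core can be compared.
CNN2 (chr19:1026510-1026538, plus strand): gcctccaggCCTTATAAGGacatttgcgc
ACTN1 (chr14:68977718-68977746, minus strand): cgctcatgtCCAAAAATGGtaacattcat
FLNA (chrX:154374709-154374737, minus strand): gcaattttaCCAATTAAGGctttctcgcc
ACTG1 (chr17:81512874-81512902, minus strand): gaaagatcgCCATATATGGacatgttctg
FHL2 (chr2:105438595-105438623, minus strand): atctggagaCCTTAAAAGGcacgtgggag
Promoters of CNN1, ACTA2 and TPM1, which rose more, held no match to this strict spelling in this window. A promoter of ACTA2 held ccctatatgg and ccttgtttgg, which depart from it at a single base each and were not counted. The lack of a match therefore does not show that a promoter lacks a CArG box. The RefSeq set held promoters for 29 of the 32 tested members. MYL9 and TAGLN had none there and were not searched. The E-box CAGNTG, the site of E proteins, was in 49.8% of promoters of genes over 2-fold higher, in 49.1% of those over 2-fold lower, in 44.02% of those of all tested genes and in 49.9% of all promoters of the RefSeq set.

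Matrix glycoproteins rose in 12 of 16 tested members (75%) and fell in 0, and 6 further members had too few counts to test. The median was 0.69, and by group it was 0.47 with ID1, 1.02 with ID2, 0.68 with ID3 and 0.32 with ID4. FN1, fibronectin, stood at 6124, 6325 and 5888 CPM in the GFP libraries and 7783 to 15355 CPM (median 11468) in the ID libraries (log2 fold change 0.88, SE 0.05, adjusted p = 2.10e-11). FBN1, fibrillin 1 (0.89), TNC, tenascin C (0.77), LOX (0.73), LUM (0.71) and VCAN (0.68) rose as well, named with FN1 after their values were seen. LOXL1, a lysyl oxidase of elastic fibres, stood at 607, 567 and 594 CPM in the GFP libraries and 903 to 1673 CPM (median 1129.7) in the ID libraries (log2 fold change 0.995, SE 0.05, adjusted p = 2.18e-13). All ID libraries of FN1, FBN1 and LOXL1 lay above GFP, and those of TNC overlapped it. ELN, elastin, had few counts, at 1.47, 1.0 and 2.46 CPM in the GFP libraries and 2.38 to 4.68 CPM (median 3.69) in the ID libraries (log2 fold change 1.14, SE 0.25, adjusted p = 0.00133), and overlapped GFP. Without replicate 1 of each group its value was 1.02 (adjusted p = 0.0618), and without replicate 2 it was 0.78 (adjusted p = 0.051). DCN, decorin, was near the floor and passed narrowly (log2 fold change 1.12, SE 0.40, adjusted p = 0.0349). Leaving out any GFP library, or the ID1, ID2 or ID3 group, ended the call, as did DESeq2, limma-voom and the subtraction of the median of its chromosome 12, with adjusted p-values of 0.0502 to 0.187 and a log2 fold change of 0.89 to 1.35 over the alternatives in which it failed. THBS1, POSTN, LOXL2 and FBN2 did not pass (-0.11, -0.04, -0.02 and 0.19). FBN1 and LOXL1 lie on chromosome 15, and the list median was 0.55 after subtraction of chromosome medians.

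Collagens and laminins were higher in 15 of 26 tested members and lower in 3, with a median of 0.28. COL3A1, a fibrillar collagen of distensible tissue, stood at 0.699, 0.919 and 0.593 CPM in the GFP libraries and 1.53 to 6.89 CPM (median 4.56) in the ID libraries (log2 fold change 2.35, SE 0.23, adjusted p = 6.22e-08). Every ID library lay above GFP, but the rise differed between ID groups (adjusted p = 7.82e-06), from 1.17 with ID4 to 3.07 with ID3. COL1A2 stood at 755, 796 and 821 CPM in the GFP libraries and 1069.8 to 1866 CPM (median 1323) in the ID libraries (log2 fold change 0.77, SE 0.06, adjusted p = 1.69e-09), and its partner chain COL1A1 changed little (0.12, adjusted p = 0.0237). COL5A2 (0.94), COL7A1 (0.76) and the laminin chain LAMB3 (0.82) also rose, named with COL1A2 after their values were seen. COL13A1, a transmembrane collagen, went the other way, at 74, 80.6 and 77.9 CPM in the GFP libraries and 13.6 to 45.5 CPM (median 24.3) in the ID libraries (log2 fold change -1.65, SE 0.05, adjusted p = 8.35e-17), with no overlap. COL11A1 passed as lower on average (-1.79, adjusted p = 9.63e-05), yet the ID groups differed widely (adjusted p = 1.01e-06), at 0.44 with ID1, -3.21 with ID2, -3.68 with ID3 and -0.70 with ID4, from at most 35 counts in a library.

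**Figure D4:**
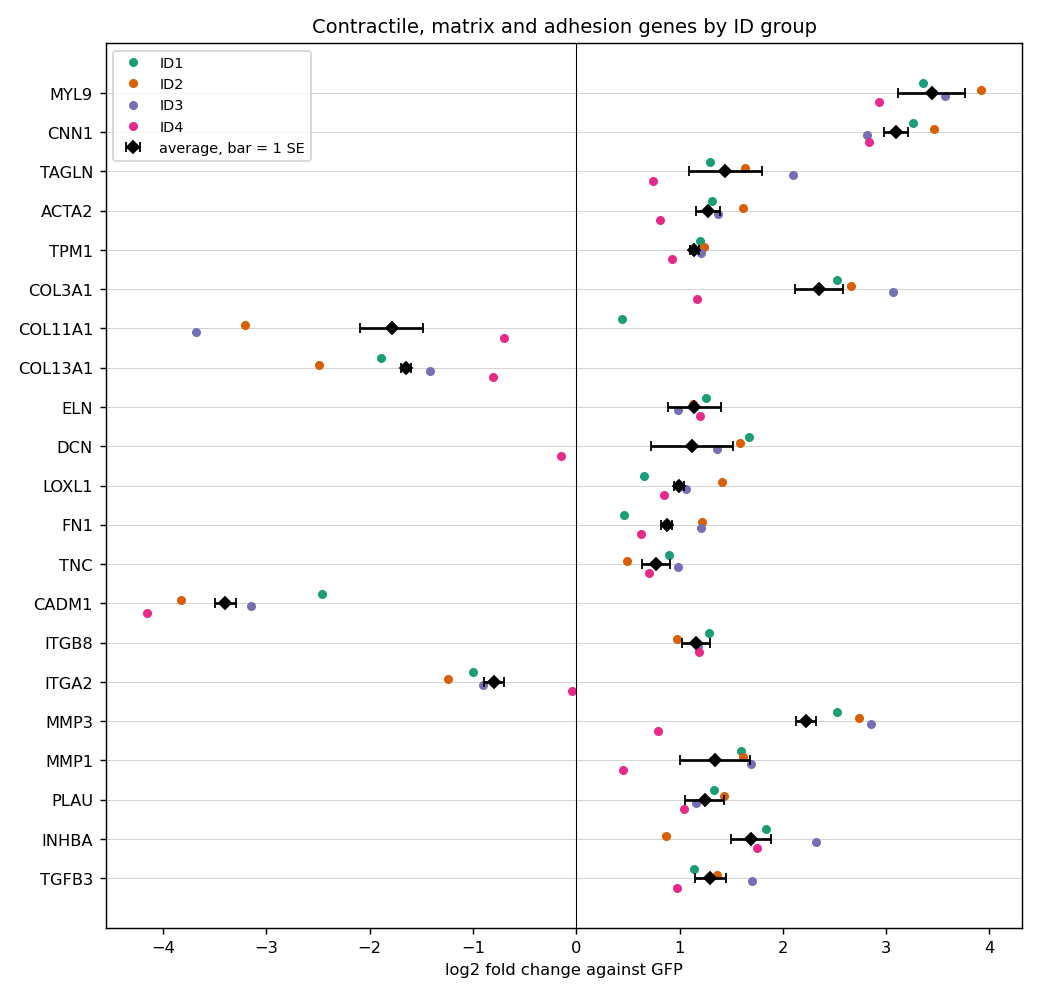
The log2 fold change against GFP is plotted for contractile, matrix, adhesion and TGF-beta genes, with coloured points for each ID group and a diamond with a bar of 1 SE for their average. The averages of CNN1 and MYL9 lie farthest right and that of CADM1 farthest left. COL11A1 has points on both sides of 0, and the points for ID4 lie nearest to 0 for MMP3, MMP1 and ITGA2.

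Adhesion genes rose in 12 and fell in 5 of 22 tested members. Integrins were higher in 9 of 13 and lower in 1. ITGB8, which activates latent TGF-beta, stood at 4.61, 3.17 and 3.81 CPM in the GFP libraries and 6.35 to 9.99 CPM (median 8.78) in the ID libraries (log2 fold change 1.16, SE 0.14, adjusted p = 8.82e-07). ITGA2, a collagen receptor chain, was the lower one, at 14.5, 15.7 and 13.5 CPM in the GFP libraries and 5.81 to 15.2 CPM (median 7.75) in the ID libraries (log2 fold change -0.80, SE 0.09, adjusted p = 8.34e-07), and it was near GFP with ID4 (-0.04, adjusted p among the ID groups = 1.06e-06). CADM1, an immunoglobulin adhesion molecule, had the largest decrease of the list. It lies on chromosome 11 from 115039938 to 115375675 of GRCh37 and stood at 25.2, 25.6 and 25.7 CPM in the GFP libraries and 1.14 to 5.26 CPM (median 2.18) in the ID libraries (log2 fold change -3.40, SE 0.10, adjusted p = 8.35e-17). Its level was lower in all 4 groups, from -2.46 with ID1 to -4.15 with ID4. Among metalloproteinases and their inhibitors, 9 of 19 were higher and 3 lower. MMP3, stromelysin, stood at 11.04, 11.02 and 9.66 CPM in the GFP libraries and 17.8 to 82.5 CPM (median 65.1) in the ID libraries (log2 fold change 2.23, SE 0.10, adjusted p = 5.41e-14), and ADAM19 rose by 1.58. The rise of MMP3 was 0.79 with ID4 and 2.52 to 2.85 with ID1, ID2 and ID3, and the ID groups differed (adjusted p = 4.53e-12). MMP1 passed at low counts (1.34, adjusted p = 0.0039) but not without GFP replicate 1 (0.95, adjusted p = 0.0572), without replicate 1 of each group (0.98, adjusted p = 0.0773) or without replicate 2 (1.13, adjusted p = 0.0922). MMP16, a membrane-bound protease, was lower (-0.89). In the plasminogen system, 4 of 10 tested genes were higher and 3 lower. The protease PLAU stood at 35.8, 24.2 and 37.5 CPM in the GFP libraries and 51.3 to 112 CPM (median 76.3) in the ID libraries (log2 fold change 1.24, SE 0.19, adjusted p = 2.84e-05). It was above GFP in every ID library, while the receptor PLAUR did not pass (0.02).

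Of the ligands and inhibitors of the TGF-beta family, 10 of 15 were higher and 1 lower, and of its receptors, SMADs and targets 7 of 26 were higher and 3 lower. The median of all 41 was 0.15. INHBA, the activin A chain, stood at 1.26, 2.0 and 1.27 CPM in the GFP libraries and 2.51 to 7.98 CPM (median 5.55) in the ID libraries (log2 fold change 1.69, SE 0.20, adjusted p = 6.41e-07). TGFB3 stood at 2.096, 2.42 and 2.03 CPM in the GFP libraries and 3.72 to 7.37 CPM (median 5.34) in the ID libraries (log2 fold change 1.30, SE 0.15, adjusted p = 5.93e-07). TGFB2, counted among the YAP and TAZ targets as well, stood at 35, 35.4 and 33.4 CPM in the GFP libraries and 51.8 to 79.7 CPM (median 69.1) in the ID libraries (log2 fold change 0.94, SE 0.05, adjusted p = 2.52e-12). All 3 ligands lay above GFP in every ID library. The activin antagonist FST (1.02) and the inhibitory SMAD6 (0.90) also rose, and the receptor chain TGFBR2 fell (-0.53), named after their values were seen. BAMBI, a pseudoreceptor that dampens the pathway, was lower (-1.01, adjusted p = 8.65e-04). SMAD2, SMAD3 and SMAD4 did not pass (-0.01, -0.12 and -0.12). Of the 19 tested YAP and TAZ targets, 9 were higher and 2 lower, and of the 6 factors 0 were higher and 2 lower. CTGF and CYR61, chosen after their values were seen, were both at 0.34 and AMOTL2 at 0.58.

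The partners of ID proteins were all expressed and all passed, in different directions. TCF3 stood at 248, 275 and 287 CPM in the GFP libraries and 185 to 252 CPM (median 222) in the ID libraries (log2 fold change -0.27, SE 0.05, adjusted p = 9.30e-05). TCF4 stood at 78.1, 80.3 and 79.04 CPM in the GFP libraries and 87.7 to 120.1 CPM (median 99.3) in the ID libraries (log2 fold change 0.34, SE 0.05, adjusted p = 6.01e-06). TCF12 stood at 16.98, 16.03 and 18.05 CPM in the GFP libraries and 23.8 to 29.2 CPM (median 25.4) in the ID libraries (log2 fold change 0.61, SE 0.07, adjusted p = 1.52e-06). TCF3 was thus lower with some overlap, and the other two E proteins were higher without overlap, TCF12 by 0.29 after subtraction of the median of its chromosome 15. Of 16 other basic helix-loop-helix factors and repressors, 5 were higher and 0 lower. HAND2 rose by 0.97 (adjusted p = 0.00194) and MSC by 0.74 (adjusted p = 0.00129), the latter at 0.35 (adjusted p = 0.194) from the ID3 and ID4 groups alone. HES1, a Notch target, rose by 0.92 (adjusted p = 0.00771) at 1.54, 1.503 and 0.678 CPM in the GFP libraries and 1.61 to 3.91 CPM (median 2.24) in the ID libraries, but it did not pass without GFP replicate 3 (0.64, adjusted p = 0.0843), without replicate 3 of each group (0.59, adjusted p = 0.116) or without replicate 1 (1.05, adjusted p = 0.0558). Around the adaptor LMO2, 4 of 10 tested genes were higher and 3 lower. LMO2 stood at 3.49, 3.59 and 5.34 CPM in the GFP libraries and 0.212 to 3.32 CPM (median 1.53) in the ID libraries (log2 fold change -1.47, SE 0.25, adjusted p = 9.96e-05), below GFP in every ID library. GATA6 (-0.85) fell and GATA3 (0.54) rose, both of which can bind with LMO2, and the bridge LDB1 did not pass (-0.06).

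Genes of the cell cycle were slightly lower. In DNA replication, 20 of 36 were lower and 2 higher, with a median of -0.20, and in mitosis 15 of 30 were lower and 4 higher, with a median of -0.13. GINS2 (-0.44) and GINS4 (-0.43) of the replicative helicase fell. PCNA (-0.32) and MCM2 to MCM7 (-0.36 to -0.17) fell too, named after their values were seen. CDK1, the mitotic kinase, stood at 175, 168 and 170.3 CPM in the GFP libraries and 121 to 138 CPM (median 127) in the ID libraries (log2 fold change -0.41, SE 0.04, adjusted p = 1.21e-07), without overlap and with a span of 0.09 between ID groups. CDC25C, which activates it, was at -0.52. POLD1 went the other way on average (0.41), which rested on ID4, with -0.18 with ID1, -0.21 with ID2, 0.01 with ID3 and 2.01 with ID4. Without the ID4 group it was at -0.13 and did not pass. BUB1B rose by 0.49 and, on chromosome 15, was at 0.17 after subtraction of the chromosome median (adjusted p = 0.0958). Of p53 targets, 13 of 21 were higher and 3 lower, with a median of 0.23. CDKN1A, the p21 inhibitor of cyclin-dependent kinases, stood at 120.3, 123 and 112 CPM in the GFP libraries and 124 to 158 CPM (median 142) in the ID libraries (log2 fold change 0.25, SE 0.04, adjusted p = 9.96e-05), and TP53I3 rose by 0.62. The lower members were SESN2, also an ATF4 target (-0.97), PMAIP1 (-0.57) and TNFRSF10B (-0.21).

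Receptor tyrosine kinases of glioma were higher in 7 and lower in 2 of 17 tested members, and 12 members had too few counts to test. EPHB4, an ephrin receptor, stood at 2.096, 2.51 and 2.12 CPM in the GFP libraries and 6.02 to 8.65 CPM (median 7.15) in the ID libraries (log2 fold change 1.71, SE 0.14, adjusted p = 3.41e-09). PDGFRA, a receptor often amplified in glioma, stood at 3.63, 3.92 and 4.91 CPM in the GFP libraries and 0.521 to 3.13 CPM (median 2.05) in the ID libraries (log2 fold change -1.19, SE 0.21, adjusted p = 1.27e-04). Both parted from GFP in every ID library, and PDGFRA fell most with ID2 (-2.11). PDGFRB (0.91) and IGF1R (0.85) rose, and EGFR fell slightly (-0.28). The count of ROS1 was 0 to 2 per library with GFP against 11 to 36 over the 12 ID libraries, a ratio of 18.4 (95% counting interval 7.13 to 68.1). Feedback genes of ERK signaling fell in 7 of 15 and rose in 1, with a median of -0.31. PHLDA1 stood at 1114, 1175 and 1285 CPM in the GFP libraries and 527 to 784 CPM (median 714) in the ID libraries (log2 fold change -0.82, SE 0.04, adjusted p = 1.03e-12), and IER3 at 1032, 1222 and 1253 CPM in the GFP libraries and 554 to 899 CPM (median 667) in the ID libraries (log2 fold change -0.77, SE 0.04, adjusted p = 9.62e-12). The phosphatase DUSP6 (-0.58), the inhibitor SPRY2 (-0.70) and the factor ETV5 (-0.31) also fell. DUSP4, DUSP5 and ETV4 did not pass (0.07, -0.06 and -0.02). In the insulin-like growth factor axis, the binding protein IGFBP4 stood at 201, 190.3 and 200.4 CPM in the GFP libraries and 47.2 to 92.6 CPM (median 58.7) in the ID libraries (log2 fold change -1.65, SE 0.04, adjusted p = 1.15e-18). IGFBP1 stood at 4.96, 3.67 and 3.73 CPM in the GFP libraries and 0.4195 to 2.32 CPM (median 1.38) in the ID libraries (log2 fold change -1.73, SE 0.19, adjusted p = 3.08e-07). Both fell without overlap, as did IGFBP3 (-0.79), while IGFBP6 (0.55) and IGFBP7 (0.25) rose. PDGFRB, EGFR, DUSP6, SPRY2, ETV5, IGFBP3, IGFBP6 and IGFBP7 were named after their values were seen.

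Cytokine genes diverged. IL1B, interleukin 1 beta, stood at 28.1, 23.1 and 24.7 CPM in the GFP libraries and 5.67 to 10.9 CPM (median 8.25) in the ID libraries (log2 fold change -1.60, SE 0.11, adjusted p = 1.23e-10). Its antagonist IL1RN stood at 1.398, 1.75 and 2.203 CPM in the GFP libraries and 2.57 to 9.91 CPM (median 5.63) in the ID libraries (log2 fold change 1.55, SE 0.19, adjusted p = 1.01e-06). The ligand lay below and the antagonist above GFP in every ID library, and the antagonist differed between ID groups (adjusted p = 8.07e-07), with larger values for ID1 and ID2 (2.14 and 2.30) than for ID3 and ID4 (0.68 and 1.06). IL36B, of the same family and the same chromosome 2, had 3 to 6 counts per library with GFP against 12 to 91 over the 12 ID libraries, a ratio of 9.39 (95% counting interval 5.55 to 17.3). The chemokine CXCL8 (-0.68) and the inhibitor of apoptosis BIRC3 (-0.90) fell, and IL11 (0.71) and the receptor IL1R1 (0.67) rose, named after their values were seen. Over the list of interleukin 1, chemokine and NF-kB genes, 6 of 27 were higher and 9 lower. Of 30 interferon-stimulated genes, 2 were higher and 6 lower. STAT3 was lower (-0.27, adjusted p = 3.29e-04), JAK1 higher (0.38) and SOCS3 did not pass, among 5 higher and 4 lower of 19 genes of the interleukin 6 pathway. Of antigen presentation genes 8 of 21 were higher and 3 lower. B2M rose by 0.61, or by 0.29 after subtraction of the median of its chromosome 15, while HLA-B and HLA-C did not pass (0.01 and 0.03).

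Stemness and glial genes moved both ways, with 6 higher and 6 lower of 18 tested, and 18 of 36 had too few counts to test. SOX9, a factor of glial progenitors, stood at 21.5, 20.6 and 23.2 CPM in the GFP libraries and 2.76 to 10.8 CPM (median 6.39) in the ID libraries (log2 fold change -1.76, SE 0.09, adjusted p = 2.52e-12). MBP, myelin basic protein, stood at 4.402, 5.18 and 4.91 CPM in the GFP libraries and 0.608 to 2.01 CPM (median 0.889) in the ID libraries (log2 fold change -2.37, SE 0.21, adjusted p = 1.37e-08). Both lay below GFP in every ID library. KLF4 fell at few counts (-1.47, adjusted p = 1.03e-04). SOX4 had 0 to 7 counts per library with GFP against 11 to 37 over the 12 ID libraries, a ratio of 6.28 (95% counting interval 3.36 to 13.2). Aldehyde dehydrogenases parted by isoform. ALDH1A3, a retinoic acid enzyme that marks mesenchymal glioma, stood at 322, 306 and 316 CPM in the GFP libraries and 101 to 163 CPM (median 113) in the ID libraries (log2 fold change -1.37, SE 0.04, adjusted p = 7.38e-18). ALDH4A1, of proline breakdown, stood at 9.71, 9.85 and 12.3 CPM in the GFP libraries and 23.8 to 44.7 CPM (median 26.9) in the ID libraries (log2 fold change 1.501, SE 0.09, adjusted p = 2.35e-11), and ALDH2 rose by 1.37. ALDH1A1 was raised by the average (3.35) but was not a shared change, with 7.20 with ID1, 2.32 with ID2, 0.54 with ID3 and 3.35 with ID4 and at most 9 counts per library with ID2 and 2 with ID3. SOX9 and ALDH2 were named after their values were seen.

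Among chaperones, CRYAB, a small heat shock protein of muscle and glia, stood at 0.908, 1.25 and 2.03 CPM in the GFP libraries and 5.71 to 12.7 CPM (median 8.91) in the ID libraries (log2 fold change 2.66, SE 0.18, adjusted p = 1.29e-10), above GFP in every ID library. Its whole list of heat shock genes held 6 higher and 3 lower of 28 and a median of 0.03. In the unfolded protein response of the endoplasmic reticulum, 12 of 30 were higher and 4 lower, with the chaperone-type enzyme PDIA3 at 0.38 (0.06 and no longer passing after subtraction of the median of chromosome 15), XBP1 at -0.38 and HSPA5, the main chaperone, not passing (-0.03). Lysosome and autophagy genes were higher in 13 of 34 and lower in 4, led by GABARAPL1 (0.68) and ASAH1 (0.53), with the protease CTSL lower (-0.50). Their median was 0.05 with ID1, 0.18 with ID2, 0.15 with ID3 and -0.001 with ID4. For the unfolded protein response it was 0.06, 0.15, 0.10 and -0.02 in the same order. Among the ID groups, 23 of 34 and 16 of 30 members differed, beside 29.4% of all tested genes. The library medians of both lists overlapped GFP. NRF2 targets passed in 5 cases as higher and 8 as lower of 22, and the factor and its repressor did not pass. Among the targets, SLC7A11 (-1.70) is shared with the ATF4 targets and the ferritin chain FTH1 rose by 0.34. Cholesterol genes were higher in 6 of 24 and lower in 2, with HMGCS1 at 0.37. Fatty acid genes were split 3 and 3 of 14, with ACLY at 0.38. Proteasome subunits held 2 higher and 3 lower of 31, all within -0.20 to 0.30. Metallothioneins (2 higher and 1 lower of 8), immediate early genes (2 and 4 of 23) and cyclin-dependent kinase inhibitors with D cyclins (5 and 1 of 7, or 2 and 1 after subtraction of chromosome medians) completed the lists.

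Several of the largest changes lay outside the pathway lists. ZPLD1 and ZBBX, on chromosome 3, were present with GFP and all but absent in the ID groups. ZPLD1 had 371 to 539 counts per library with GFP against 0 to 3 over the 12 ID libraries, and GFP exceeded the ID libraries by a ratio of 579 (95% counting interval 314 to 1210.0). ZBBX had 400 to 583 counts per library with GFP against 0 to 7 over the 12 ID libraries, a ratio of 187 (95% counting interval 132 to 275). ARL14EP, an effector of the small GTPase ARL14, lies on chromosome 11 from 30344651 to 30359770 of GRCh37 and stood at 182, 176 and 158 CPM in the GFP libraries and 22.2 to 28.5 CPM (median 25.04) in the ID libraries (log2 fold change -2.77, SE 0.05, adjusted p = 1.08e-20). The 4 ID groups lay within 0.13 of each other, a difference that did not pass (adjusted p = 0.526). SECTM1, a secreted and transmembrane protein, stood at 12.2, 11.6 and 12.5 CPM in the GFP libraries and 1.11 to 3.04 CPM (median 2.22) in the ID libraries (log2 fold change -2.55, SE 0.14, adjusted p = 3.54e-12). Among raised genes, GUCY1A2, a chain of the nitric oxide receptor, had 3 to 10 counts per library with GFP against 30 to 159 over the 12 ID libraries, a ratio of 12.6 (95% counting interval 7.82 to 21.7), with the highest level in the ID2 group. ISLR had 1 to 5 counts per library with GFP against 10 to 53 over the 12 ID libraries, ZNF74 had 1 to 2 counts per library with GFP against 8 to 19 over the 12 ID libraries and ZNF268 had 2 to 4 counts per library with GFP against 17 to 51 over the 12 ID libraries, so these rises start from few counts. The 10 nearest tested genes, 5 on each side, had a median log2 fold change of 0.22 around ZPLD1, 0.26 around ZBBX, 0.04 around CADM1, 0.05 around ARL14EP and -0.14 around CNN1.

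From the ID3 and ID4 groups alone, the counts were 4 higher and 15 lower for the ATF4 regulators, 1 and 11 for amino acid synthesis, 0 and 15 for the aminoacyl-tRNA synthetases, 3 and 13 for hypoxia targets, 5 and 41 for ribosomal proteins, 2 and 19 for DNA replication and 5 and 12 for mitosis. They were 22 higher and 1 lower for the actin genes, 12 and 0 for matrix glycoproteins, 17 and 3 for collagens and laminins, 4 and 1 for cyclin-dependent kinase inhibitors with D cyclins and 13 and 3 for p53 targets. Counts moved more for the unfolded protein response (7 higher and 3 lower), NRF2 genes (7 and 4), cholesterol genes (4 and 4), the interleukin 6 pathway (4 and 1), the respiratory chain (9 and 12) and aldehyde dehydrogenases (3 and 3). Both comparisons share the GFP libraries.

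With replicate 1 or replicate 2 left out of every group, several counts fell by 1.5 times or more. Leaving out replicate 3 also left 2 libraries per group, with 51 lower ribosomal proteins and 14 lower mitosis genes. Replicate 3 of ID2 lay apart from its replicates 1 and 2, with a chi-square of the counts per degree of freedom of 10.8 and 11.3. Between replicates 1 and 2 of ID2 it was 3.32. The cause of these differences was not tested. Lower ribosomal proteins numbered 32 without replicate 1 and 27 without replicate 2, lower mitosis genes 9 and 8, higher p53 targets 8 and 7, lower respiratory chain genes 5 and 5, higher genes of the unfolded protein response 6 and 7, lower NRF2 genes 2 and 4, higher antigen presentation genes 3 and 4, higher genes of the interleukin 6 pathway 1 and 1, higher inhibitors and cyclins of the cell cycle 3 and 2 and lower interferon-stimulated genes 3 and 3. Without replicate 2, higher lysosome and autophagy genes numbered 7, higher respiratory chain genes 7 and higher YAP and TAZ factors and targets 5. Without replicate 1, lower genes of the interleukin 1 list numbered 5. Lower adhesion genes numbered 3 without either. Higher amino acid synthesis genes numbered 5 without the ID1 or the ID3 group, and higher stemness genes 3 without the ID1 group.

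Whole chromosomes also differed from GFP. Genes of chromosome 15 had a median log2 fold change of 0.32, with 58.8% of 413 tested genes higher, and those of chromosome 12 a median of 0.18, with 40.1% of 668 higher. By group, the median of chromosome 15 was 0.34 with ID1, 0.25 with ID2, 0.32 with ID3 and 0.37 with ID4. For chromosome 12 it was 0.18, 0.20, 0.14 and 0.19 in the same order. Chromosome 10 had a median of -0.13, with 35.4% of 491 lower, and the others lay between -0.08 and 0.05. Against the median of their own chromosome, 3245 of the 4126 called genes still passed. Called genes without a position could not be tested this way and are not among the 3245. Of members on chromosome 15, ISLR was at 2.74, IGF1R at 0.53 and SMAD6 at 0.57 after this subtraction, and of members on chromosome 12, ALDH2 was at 1.19, GABARAPL1 at 0.51, IGFBP6 at 0.37 and LUM at 0.53. The part of these shifts in the pathway counts was not tested beyond the values given here. Markers of mesenchymal glioma cells summed to 20796 to 21628 CPM with GFP and 23878 to 34206 CPM in the ID libraries, with FN1 the largest part of the difference. One of the 14 markers, THY1, was at 0 to 1 counts. Markers of kidney packaging cells summed to 29.1 to 39.7 CPM in all libraries, with KRT8, KRT18, CDH1 and PAX2 at 4 counts or fewer, and those of endothelium to 1.18 to 2.66 CPM. Leukocyte markers summed to 53.1 to 60.9 CPM with GFP, 54.6 to 56.7 with ID1, 77.2 to 79.4 with ID2, 61.7 to 71.03 with ID3 and 61.1 to 72.6 with ID4, almost all from CD68, a lysosomal protein that other cells also make, and both tested markers were higher in the ID groups, while PTPRC was at 8 counts or fewer. Their part in the results was not tested. Neuron and oligodendrocyte markers summed to 26.5 to 29.2 CPM with GFP and 29.8 to 55.0 CPM in the ID libraries, where SNAP25 rose by 1.03.

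**Figure D5:**
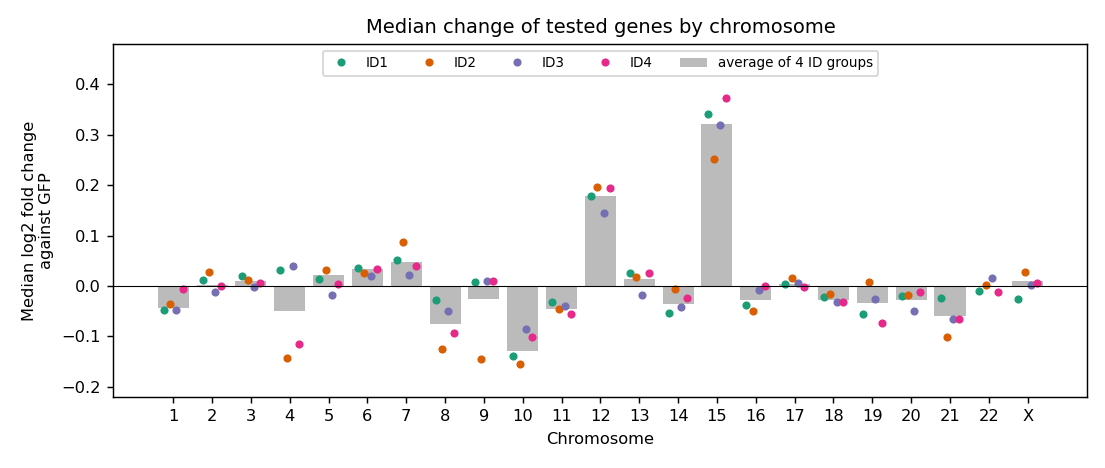
Bars give the median log2 fold change of the tested genes of each chromosome for the average of the ID groups against GFP, and coloured points give it for each ID group. Chromosomes 15 and 12 stand above the others in every ID group, and chromosome 10 is the lowest on average at -0.13.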

How the data were processed

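RNA of 15 libraries, 3 each for GFP, ID1, ID2, ID3 and ID4, was measured by 3′ mRNA sequencing. The authors deposited raw read counts per gene and, beside them, log2 values of counts normalized between libraries, which were not used for any result. Per the labels, hg19 (GRCh37) was the build, and Bowtie2 and BWA are named in the submitters' processing notes. Their roles, the counting tool and the annotation are not given in the sources used here. Of 25737 entries listed by gene symbol, 5484 had no count in any library. More than 1 entry was listed for 286 symbols, and for 14 symbols among the tested entries, which are called genes here. Genes with a mean of 10 or more counts (12781) were fitted with edgeR 4.0.16 under R 4.3.3, with TMM scaling, 1 mean per group and quasi-likelihood tests, with Benjamini-Hochberg adjusted p-values over all tested genes and a threshold of 0.05. The contrast was the average of the 4 ID means minus the GFP mean, and a second test with 3 degrees of freedom compared the ID groups with each other. The fit was tested on simulated counts, with 1 dispersion for all genes and no differences among the ID groups. The measured ID groups differed from each other, so this covers the simulated setting only.

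The members and lists were chosen with earlier results of these data known. Besides the ID genes, the text names in each direction the 8 genes of largest change without overlap, up to 3 called genes per list with the largest change and the largest in the other direction, and factors and receptors of the lists. Others are said to be chosen after their values were seen. For the 8 genes in each direction, lack of overlap with GFP was a condition of the choice and adds no support for them. Totals of 11089044 to 15148979 counts make 3 counts equal to 0.198 to 0.271 CPM, and counting intervals (exact, 95%) cover counting error only. Positions were found for 12313 tested genes (96.3%) by symbol, and were used for the alternative that subtracts each chromosome's median. Other alternatives were DESeq2 1.42.0, limma-voom (limma 3.58.1), other scaling and filters, a replicate block, 12 pooled libraries and each replicate or group left out. Promoter sequences came from RefSeq (GRCh38.p14). Results for a few genes are not reported here.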

Additional observations from a re-analysis of the deposited data

Results flagged for a closer look

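The ID groups differed from each other, by the edgeR test whose contrasts left GFP out, by more than 2-fold between the highest and the lowest group in 24 genes named by rule, besides ID4 itself, whose groups lay 9.46 apart on the log2 scale. The group farthest from GFP was ID2 in 11 of them, ID3 in 7, ID1 in 3 and ID4 in 3. The difference between the highest and lowest ID group, on the log2 scale, was 6.66 for ALDH1A1, highest with ID1, 4.12 for COL11A1 and 2.22 for POLD1, highest with ID4. It was 2.08 for IL36B, 2.06 for MMP3, 1.92 for GUCY1A2, 1.90 for COL3A1, 1.84 for SERPINB2 and 1.82 for DCN. SERPINB2, a plasminogen activator inhibitor, was at -0.07 with ID1, -1.25 with ID2, -0.71 with ID3 and -1.90 with ID4 and stayed near GFP in the ID1 group. Among genes that were lower in every ID group, it was 1.69 for CADM1, 1.69 for COL13A1, 1.68 for IGFBP1, 1.62 for PDGFRA, 1.54 for KLF4 and 1.21 for SLC7A5. Among genes that were higher in every ID group, it was 1.62 for IL1RN, 1.54 for ISLR, 1.45 for INHBA, 1.44 for ZNF268, 1.35 for TAGLN, 1.24 for MMP1 and 1.07 for MSC. ITGA2 (1.20) and MT1M (1.15) were near GFP with ID4 alone, where MT1M, a metallothionein, was at -0.08 against 0.72 to 1.07 in the other groups.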

How the results depend on the processing

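The number of genes changed against GFP was 4126, and 2678 with the 12 ID libraries pooled as 1 group, 357 with a 2-fold change required and 2701 to 3843 without one replicate number, lowest without replicate 2. The number differing among the ID groups was 3760, and 1573 without replicate 1, 1619 without replicate 2 and 3901 without replicate 3. The replicate numbers do not pair the libraries. Same-numbered libraries of different groups had deviations that correlated from -0.25 to 0.25, with a mean of -0.02, and a fit with the replicate number as a block gave 4020 genes against GFP and 3476 among the ID groups. With a mean of 50 or more counts, the list median became -0.31 for ATF4 regulators, 0.29 for actin genes and 0.36 for collagens and laminins. Without the ID1 group it became -0.45 for ATF4 regulators and 0.35 for collagens and laminins, and without the ID2 group -0.30 for aminoacyl-tRNA synthetases, 0.30 for actin genes and 0.56 for matrix glycoproteins. From the ID3 and ID4 groups alone it was -0.28 for hypoxia targets, 0.31 for actin genes, 0.33 for collagens and laminins and 0.52 for matrix glycoproteins. After subtraction of chromosome medians it was -0.062 for amino acid synthesis, -0.091 for amino acid transporters, -0.34 for hypoxia targets and 0.55 for matrix glycoproteins. Without one replicate number it was -0.17 to -0.061 for amino acid synthesis and 0.23 to 0.36 for collagens and laminins. The median of amino acid transporters, -0.02, turned to 0.014 without the ID2 group. Over all 40 lists, 80 of 520 medians moved by more than the spread between replicates and 22, in 12 lists, took the other sign, the largest of these being the insulin-like growth factor axis, from -0.31 to 0.031 with a mean of 50 or more counts. POLD1 turned to -0.13 without the ID4 group. Of 2137 values of the 143 genes named by rule under the alternatives, 2058 kept their direction and side of the threshold, 74 no longer passed, 4 newly passed and 1 turned, and the cause was not tested. SPRY4, in the lists but not described above, passed with all libraries and not without GFP replicate 1 (-0.89, adjusted p = 0.135) or GFP replicate 2 (-1.03, adjusted p = 0.0708). CDKN2D was at -0.24 (adjusted p = 0.0579) without replicate 2, and STAT5A at -0.21 (adjusted p = 0.0589) without the ID2 group. Other scalings moved the median gene by at most 0.005 on the log2 scale. A single control group, a single cell line, 3 libraries per group and unknown separation of cultures limit all of these values, and genes with few counts in GFP have wide ratios.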
